A study of Homo sapiens with 10 samples.

Results

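The MHC class I presentation genes described here are HLA-B, HLA-C, HLA-E, HLA-F, B2M, TAP1, TAP2, TAPBP and NLRC5. They were chosen by name as genes present in both deposited count tables, and they are 9 of the 58735 genes that the tables list. They were measured by RNA-seq in TPC-1 cells, a line established from a human papillary thyroid carcinoma. The OE cells (n = 5) were transfected with a vector that overexpresses the long non-coding RNA PTCSC3-AS1, and the EV cells (n = 5) with an empty vector. Each group has 3 libraries in 1 deposited table (replicates 1 to 3, the first set) and 2 in another (replicates 4 and 5, the second set). Whether the transfection was transient or stable, whether clones or pools were used, and whether replicates were separate cultures is not stated, so p-values measure only the spread between these libraries. All comparisons are within 1 cell line, and what separates the sets beyond their tables is not stated either.

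MHC class I molecules carry short peptides from inside the cell to its surface, where CD8 T cells and natural killer cells read them. Each consists of a heavy chain, such as HLA-B or HLA-C (classical) or HLA-E or HLA-F (non-classical), and a common light chain, beta-2-microglobulin, made from B2M. Peptides cut by the proteasome enter the endoplasmic reticulum through the transporter formed by TAP1 and TAP2, and tapasin, the product of TAPBP, holds empty heavy chains at that transporter while they are loaded. NLRC5 acts in the nucleus as a transactivator of class I genes, and interferons raise the whole set. Tumours, thyroid carcinomas among them, often carry low class I levels at the protein level, which RNA counts do not measure.

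The start regions of these genes are shown because they hold the elements through which the genes are known to be driven together. Whether these elements had a part in the values below was not tested. RefSeq promoter windows, 250 bases before to 50 after a start site on GRCh38.p14, were at hand for 7 of the 9 genes in 8 windows; HLA-E and NLRC5 had none. Capitals mark matches, on either strand, to the interferon-stimulated response element (ISRE, GAAANNGAAA), its short form GAANNGAAA, the NF-kB motif, the CCAAT box and the core of the cyclic AMP response element, TGACG; matches that overlap run together. The windows of a classical heavy chain gene (HLA-C, chr6:31272043-31272342, minus strand), a non-classical one (HLA-F, chr6:29723184-29723483, plus strand), the light chain gene (B2M, chr15:44711267-44711566, plus strand) and a transporter gene (TAP1, chr6:32853655-32853954, minus strand) read 5′ to 3′ as follows.
HLA-C: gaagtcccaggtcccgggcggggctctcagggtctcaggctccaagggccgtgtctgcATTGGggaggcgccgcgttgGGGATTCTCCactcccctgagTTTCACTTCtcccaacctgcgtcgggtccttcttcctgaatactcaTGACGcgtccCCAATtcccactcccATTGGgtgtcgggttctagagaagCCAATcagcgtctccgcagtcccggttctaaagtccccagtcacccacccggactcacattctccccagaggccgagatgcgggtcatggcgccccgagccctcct
HLA-F: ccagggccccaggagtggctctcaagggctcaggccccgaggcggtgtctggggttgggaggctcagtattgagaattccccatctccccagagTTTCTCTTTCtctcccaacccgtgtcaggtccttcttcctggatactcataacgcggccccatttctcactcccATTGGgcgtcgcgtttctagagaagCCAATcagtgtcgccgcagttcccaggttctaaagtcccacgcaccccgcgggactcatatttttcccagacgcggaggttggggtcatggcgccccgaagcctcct
B2M: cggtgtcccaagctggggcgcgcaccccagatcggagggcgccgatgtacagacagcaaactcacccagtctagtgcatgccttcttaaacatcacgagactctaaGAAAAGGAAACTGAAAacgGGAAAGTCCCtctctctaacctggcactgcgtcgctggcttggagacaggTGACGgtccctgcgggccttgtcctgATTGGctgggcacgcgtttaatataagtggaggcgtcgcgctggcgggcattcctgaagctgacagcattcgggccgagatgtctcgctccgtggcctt
TAP1: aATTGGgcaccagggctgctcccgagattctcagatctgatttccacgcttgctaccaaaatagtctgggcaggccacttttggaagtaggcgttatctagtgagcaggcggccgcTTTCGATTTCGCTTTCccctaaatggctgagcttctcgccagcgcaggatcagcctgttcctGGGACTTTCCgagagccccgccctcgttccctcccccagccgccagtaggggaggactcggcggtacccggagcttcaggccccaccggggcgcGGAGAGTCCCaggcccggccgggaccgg

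An ISRE match stood in the windows of HLA-F, B2M, TAP1, TAP2 and TAPBP, while 3.57% of all 35116 RefSeq windows of the same length held one. The windows of HLA-B and HLA-C held the short form, as did that of TAP2, against 7.66% of all windows. An NF-kB match was found for HLA-B, HLA-C, B2M, TAP1 and TAPBP, against 11.3% of all windows. CCAAT (34.6% of all windows) was found for HLA-B, HLA-C, HLA-F, B2M and TAP1, and TGACG (24.6% of all windows) for HLA-B, HLA-C, B2M and TAP2. In the 3 heavy chain windows the ISRE match or its short form began between positions -156 and -151, counted from the start site, and the CCAAT match nearest to that site began at -57 or -56; HLA-C had a further CCAAT match with its ends at -192 and -188. The second TAP1 window (chr6:32852712-32853011, minus strand) held no match to any of the 5 motifs. A match is a stretch of letters and not a measured binding site.

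**Figure D1:**
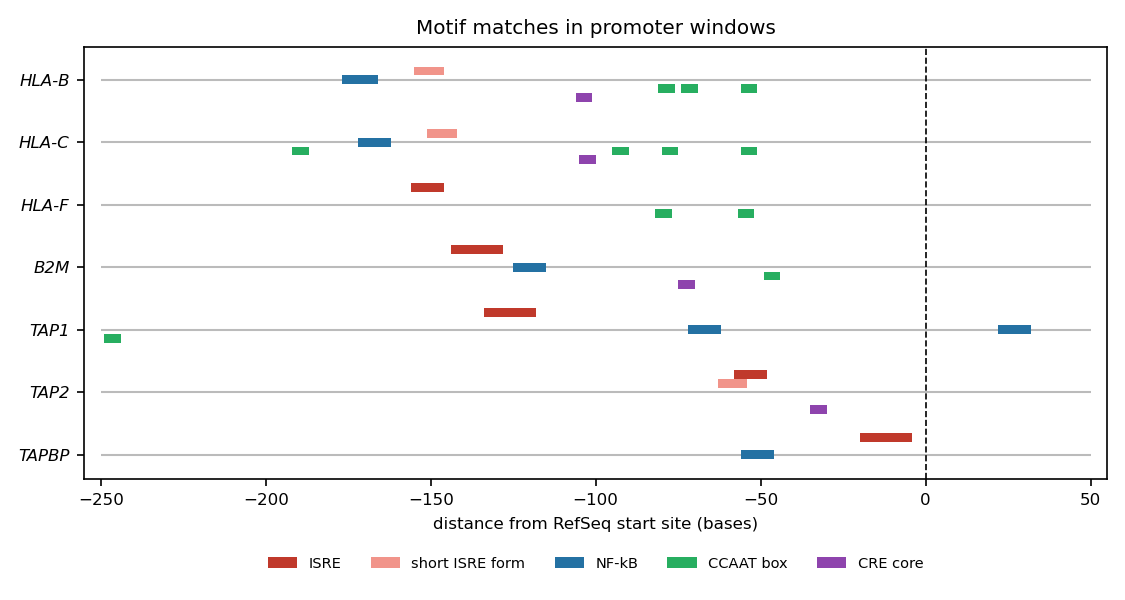
Positions of motif matches in the RefSeq promoter windows, in bases from the annotated start site (dashed line at 0), 1 row per gene and 1 colour per motif. ISRE matches stand in the windows of HLA-F, B2M, TAP1, TAP2 and TAPBP, and the short form in those of HLA-B, HLA-C and TAP2.

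The libraries held 15761474 to 18066559 counts assigned to genes, and the class I genes took 0.176 to 0.252% of them. No row of the tables is named PTCSC3-AS1, so the overexpression itself could not be read from them by name. Of the thyroid markers, PAX8 (357 to 478 CPM, counts scaled to library size) and FOXE1 were present in every library, TG reached 1.37 CPM, and NKX2-1 and TSHR were at 0 in all 10. Leukocyte markers summed to 1.76 to 3.42 CPM in OE and 1.72 to 3.72 CPM in EV cells, with CD3D, CD3E, CD2, MS4A1 and FCGR3A among those at 0 throughout, and 4 of 9 interferon ligand genes (IFNA2, IFNG, IFNL2 and IFNL3) were also at 0. Several libraries stood apart. EV replicate 2 did so over all genes. The chi-square per degree of freedom of its counts was 38.2 against EV replicate 1 and 45.2 against EV replicate 3, where those 2 differed by 4.30. EV replicates 4 and 5, of the other set, differed from replicates 1 and 3 by 18.6 to 29.8. All EV values of the first set include this library, and what set it apart was not tested. In EV replicate 2 the median of 15 constitutive proteasome genes lay 0.44 above the mean of the 10 libraries on the log2 scale, and in OE replicate 4 and EV replicate 4 the median of 32 interferon-stimulated genes lay 0.94 and 0.56 above it.

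Copies and overlaps limit how some of these genes can be counted. On the GENCODE 29 annotation 31.8% of the 100-base windows of HLA-F transcripts occur in transcripts of another gene, as do 12.2% for HLA-B, 12.7% for TAP1 and 35.2% for TAP2, while B2M, TAPBP and NLRC5 had none. For TAP2 the sharing gene is the read-through AL669918.1, which overlaps it by 16948 bases on the same strand. AL669918.1 was at 0 counts in every library, which does not show how shared reads were assigned. Shared reads make the HLA-F, HLA-B, TAP1 and TAP2 values uncertain. The annotated span of HLA-B overlaps that of HLA-C by 2640 bases on the same strand, and TAP1 overlaps PSMB9 on the opposite strand (8770 bases, with 80 to 207 PSMB9 counts in OE and 79 to 184 in EV cells). HLA-F overlaps HLA-F-AS1, which had 2 to 28 counts in OE and 7 to 17 counts in EV cells. The strand setting of the counting is not given, so overlapping reads of opposite strands cannot be told apart. How reads in overlapping genes of the same strand were counted is not given either, which leaves the HLA-B, HLA-C and TAP2 values uncertain.

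B2M was the most abundant of the 9 transcripts and NLRC5 and HLA-F the least. Per length, B2M averaged 653 ± 89.1 TPM (SD, n = 10 libraries of both groups), HLA-E 303 ± 64.4, HLA-B 268 ± 52.3 and HLA-C 204 ± 39.9 TPM. TAPBP followed at 133 ± 17.9 TPM. The transporter subunits TAP1 (39.5 ± 5.40 TPM) and TAP2 (36.0 ± 7.13 TPM) came next, and HLA-F (11.6 ± 2.72 TPM) and NLRC5 (10.1 ± 1.34 TPM) last. In this order 3 neighbour pairs were not separated: HLA-E exceeded HLA-B, TAP1 exceeded TAP2, and HLA-F exceeded NLRC5 in 6 of 10 libraries each. TPM divided counts by the deposited gene length, which exceeds the longest annotated transcript unevenly. It is 3051 against 1547 bases for HLA-B, 4342 against 1635 for HLA-F and 6079 against 2403 for B2M. For HLA-E it is 2975 against 2601 and for TAP2 6390 against 5684 bases. The order and these ties thus depend on that length, and another length was not tried. HLA-B exceeded HLA-C, and HLA-C exceeded TAPBP, in 10 of 10 libraries, although their ranges over libraries overlapped. B2M and the heavy chain genes did not overlap, with B2M at 520.1 TPM or more and HLA-E at 455 TPM or less.

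The main question was whether class I genes differ between OE and EV cells, and 0 of the 9 did at the adjusted threshold over all genes. Among the heavy chain genes, OE exceeded EV in most same-numbered cases, and HLA-C had the largest difference relative to its error. What joins libraries of the same number is not stated, so counts of same-numbered cases are a description. Their share over all genes was not counted. HLA-C had 199, 163 and 171 CPM in OE replicates 1 to 3 and 169.9 and 113 CPM in OE replicates 4 and 5, against 118, 152 and 129 CPM in EV replicates 1 to 3 and 131 and 108 CPM in EV replicates 4 and 5. It was higher in OE than in the EV library of the same number in 5 of 5 cases, but the groups overlapped over both sets: OE replicate 5 lay below 4 of the 5 EV libraries. HLA-B had 305, 261 and 277 CPM in OE replicates 1 to 3 and 226 and 168 CPM in OE replicates 4 and 5, against 216, 302 and 209.8 CPM in EV replicates 1 to 3 and 211 and 156 CPM in EV replicates 4 and 5. EV replicate 2 held almost as much HLA-B as the highest OE library, and the other 4 EV libraries stood below their OE counterparts.

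HLA-E, a ligand of natural killer cell receptors, had 249, 229 and 239 CPM in OE replicates 1 to 3 and 379 and 243 CPM in OE replicates 4 and 5, against 221, 241 and 213 CPM in EV replicates 1 to 3 and 309.8 and 227 CPM in EV replicates 4 and 5. Replicate 4 was the highest library of both groups for this gene. HLA-F had 16.5, 16.8 and 15.5 CPM in OE replicates 1 to 3 and 19.4 and 11.5 CPM in OE replicates 4 and 5, against 11.3, 14.03 and 10.4 CPM in EV replicates 1 to 3 and 17.2 and 9.86 CPM in EV replicates 4 and 5. Here too OE was the higher in 5 of 5 same-numbered cases, while the groups overlapped.

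For the light chain gene neither group stood above the other. B2M had 1140.0, 1121 and 1085 CPM in OE replicates 1 to 3 and 1303 and 875 CPM in OE replicates 4 and 5, against 1037, 1513 and 1068 CPM in EV replicates 1 to 3 and 1239 and 931 CPM in EV replicates 4 and 5. Its highest value was in EV replicate 2, and OE exceeded EV in 3 of 5 same-numbered cases. TAP1 averaged 57.1 ± 7.79 CPM in OE and 50.7 ± 5.89 CPM in EV cells, TAP2 66.7 ± 12.7 CPM in OE and 63.5 ± 11.2 CPM in EV cells, and TAPBP 201 ± 18.8 CPM in OE and 179 ± 19.1 CPM in EV cells (SD, n = 5 each). For these 3 loading genes OE exceeded EV in 5 of 5 same-numbered cases, with overlapping groups. NLRC5 had 39.8, 37.7 and 35.2 CPM in OE replicates 1 to 3 and 41.4 and 36.5 CPM in OE replicates 4 and 5, against 33.0, 27.4 and 35.9 CPM in EV replicates 1 to 3 and 36.2 and 32.1 CPM in EV replicates 4 and 5. Only in replicate 3 did EV hold slightly more of it.

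**Figure D2:**
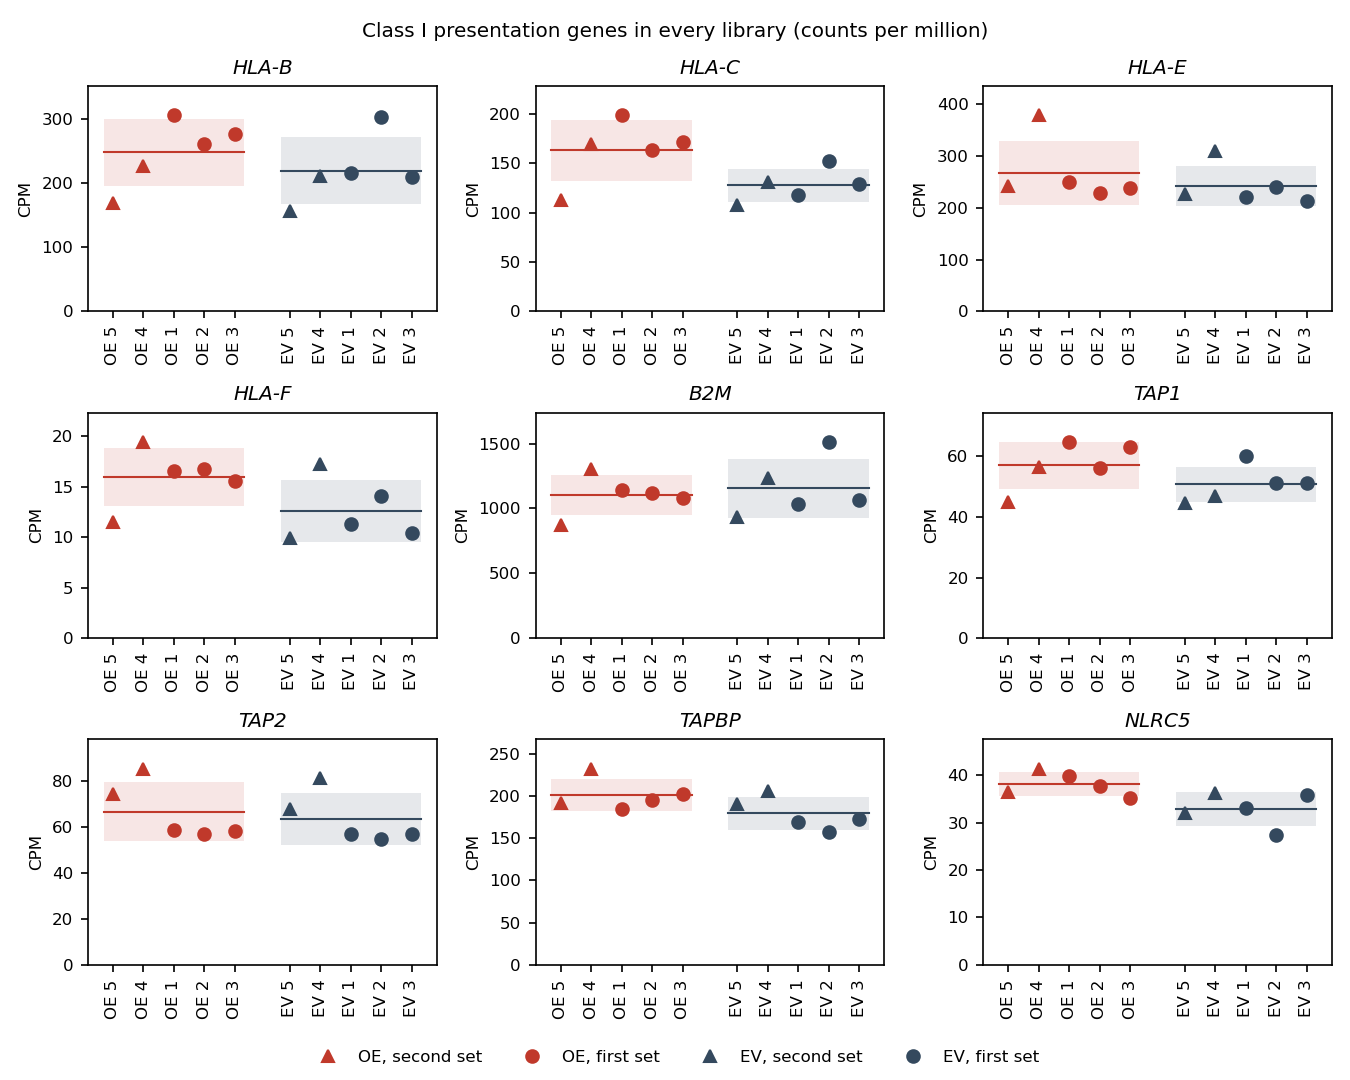
Library-size scaled counts (CPM) of each gene in every library, 1 panel per gene with its own axis starting at 0; red marks OE and dark grey EV libraries, triangles the second set and circles the first set, lines the group mean and shaded bands ± SD (n = 5). HLA-C in OE cells runs over 113 to 199 CPM and in EV cells over 108 to 152 CPM, and replicate 5 is low for most genes in both groups.

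In the quasi-likelihood fit of edgeR over both sets, with a term for the set and Benjamini-Hochberg adjustment over all genes, 0 of 9 class I genes passed an adjusted p of 0.05, as did 0% of the 14217 genes tested. At an unadjusted p under 0.05 there were 3 of the 9 class I genes (HLA-C, NLRC5 and TAPBP) and 812 of all genes, or 5.71%. HLA-C was 0.34 higher in OE cells on the log2 scale (SE 0.11, 95% interval 0.10 to 0.58, adjusted p = 0.847), which is 1.27-fold. HLA-F had the same size of difference with a wider error (0.34, SE 0.17). NLRC5, the transactivator, stood at 0.21 (SE 0.09), TAPBP, TAP1 and HLA-B each at 0.16 (SE 0.07, 0.08 and 0.12), HLA-E at 0.13 (SE 0.11), TAP2 at 0.06 (SE 0.07) and B2M at -0.07 (SE 0.13). Single libraries moved several of these values: without OE replicate 4 HLA-E stood at 0.0065, without EV replicate 5 TAP2 stood at 0.011, and without EV replicate 2 HLA-B stood at 0.27 and B2M at 0.049. Of these values 8 of 9 were above 0, against 49.2% of all genes tested, with a median of 0.16 against -0.0028. The 9 genes varied together across libraries (median pair correlation 0.67), so they do not count as 9 separate observations. In 0 of 9 cases did all OE libraries lie above all EV libraries, as they did for 0.331% of genes. The intervals set the scale of what these libraries could resolve: for B2M it ran over -0.34 to 0.20 and for HLA-E over -0.11 to 0.37. DESeq2 called 6 genes and limma-voom 0, none of them class I genes; with no filter on low counts edgeR called 23 genes, and HLA-C was among them (0.35, adjusted p = 0.0459), 1 of 9 where 0.0231% of genes were called higher. Counts of RNA in whole cultures do not separate fewer expressing cells and less RNA per cell.

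**Figure D3:**
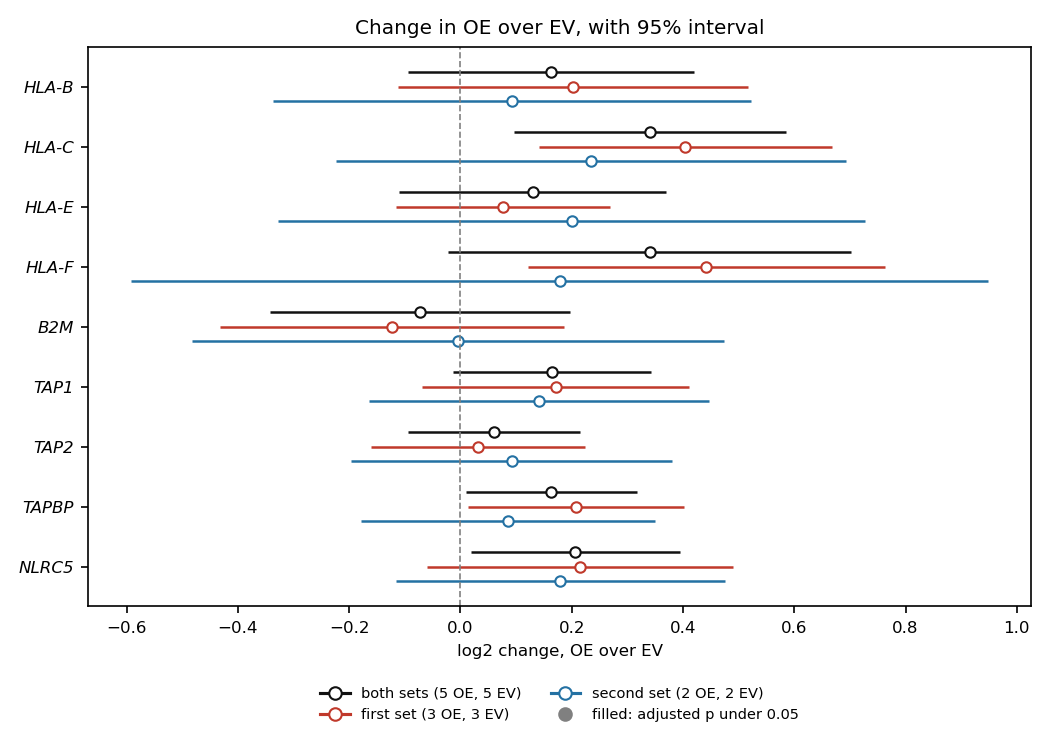
Log2 difference OE over EV for each gene with its 95% interval, over both sets and within each set; filled points would mark an adjusted p under 0.05, and the dashed line is at 0. No point is filled; HLA-C and HLA-F lie farthest to the right over both sets, both at 0.34, and B2M at -0.07.

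Within the first set (n = 3 each) HLA-F, HLA-C and TAPBP had the lowest p. HLA-F differed by 0.44 (SE 0.14, adjusted p = 0.451), HLA-C by 0.40 (SE 0.12, adjusted p = 0.427) and TAPBP by 0.21 (SE 0.09, adjusted p = 0.541), and edgeR called 0 of 9 class I genes, with 0.0349% of 14340 genes called; at an unadjusted p under 0.05 there were 3 of 9 and 8.84% of all genes, and DESeq2 and limma-voom called 0 of 9. For these 3 genes all OE libraries lay above all EV libraries, as for 9.25% of all genes: HLA-C averaged 178 ± 18.5 CPM in OE and 133 ± 17.4 CPM in EV cells, HLA-F 16.3 ± 0.665 CPM in OE and 11.9 ± 1.88 CPM in EV cells, and TAPBP 194 ± 9.22 CPM in OE and 167 ± 8.30 CPM in EV cells (SD). The first set depended on EV replicate 2. Without it, edgeR called HLA-C (0.52, SE 0.08, adjusted p = 9.75e-05), HLA-B (0.40, SE 0.07, adjusted p = 0.000486) and HLA-F (0.58, SE 0.14, adjusted p = 0.00781) higher in OE cells, and B2M stood at 0.08. That fit called 6.07% of 14769 genes higher and 4.62% lower, so 3 of 9 was above a background that had itself grown. This left-out library was singled out after its values were seen.

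Base composition moved with the groups in the first set. The correlation across genes of a library's deviation with transcript GC content was 0.05 to 0.34 in the 3 OE libraries and -0.24 to -0.08 in the 3 EV libraries, and 8 of the 9 class I genes lie above the median GC of tested genes, 48.0% (B2M, at 40.6%, does not). With an offset for GC content and length, an alternative chosen after seeing the data, the median class I difference was 0.08 in place of 0.20 in the first set and 0.09 in place of 0.16 over both sets. Under the offset B2M stood at 0.02 in both fits. With the offset and without EV replicate 2, HLA-B (0.24), HLA-C (0.31), HLA-F (0.44) and B2M (0.15) were called higher, where 4.38% of genes were. The part of GC content in the differences beyond these values was not tested.

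In the second set (n = 2 each) 0 of 9 class I genes and 0% of 14419 genes were called by edgeR, with adjusted p = 0.9998 for each of the 9. At an unadjusted p under 0.05 there were 0 of 9 and 158 of all genes, and DESeq2 called 1 gene, not of the 9. These fits have no term for the replicate number, so a shift that OE and EV share between replicates 4 and 5 counts as spread. With a replicate block in edgeR, 71 genes (0.492%) were called, with HLA-C the 1 class I gene (0.22, SE 0.06, adjusted p = 0.0499). The labels do not say what a number joins, so the block was kept as an alternative. HLA-C stood at 0.23 (SE 0.19), HLA-E at 0.20 (SE 0.22), NLRC5 at 0.18 (SE 0.12), HLA-F at 0.18 (SE 0.32), TAP1 at 0.14 (SE 0.13) and B2M at -0.0042 (SE 0.20), while HLA-B, TAP2 and TAPBP each stood at 0.09. Only NLRC5 had both OE libraries above both EV libraries, which 13.8% of all genes did. The authors' deposited table compares 1 OE with 1 EV library at a time, and its log2 values for HLA-C are 0.36 for replicate 4 and 0.07 for replicate 5, for NLRC5 0.18 and 0.19, and for B2M 0.06 and -0.09, all with an adjusted p of 1 in that table. A fit of the difference between the sets in OE over EV called 0 of 9 class I genes and 0.00703% of all genes. The largest in size was HLA-F (-0.27, SE 0.35, second minus first); at an unadjusted p under 0.05 there were 0 of 9 and 496 of all genes.

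Other genes of the pathway gave no call for OE over EV in the edgeR fit over both sets, and at an unadjusted p under 0.05 there were SOCS3 (0.25) and IRF9 (-0.82) of the interferon signalling list and IFI6 of the interferon-stimulated one. All 5 immunoproteasome and PA28 genes, whose products favour peptides fit for class I, were above 0 with a median of 0.12 (PSMB8 0.20, SE 0.11), and the 15 constitutive proteasome genes had a median of -0.03 with 4 above 0. Of the 9 peptide trimming and loading chaperone genes, 5 were above 0, with a median of 0.01; CALR, calreticulin of the loading complex, stood at 0.09 and PDIA3, the oxidoreductase ERp57, at -0.11. Of 8 tested class I-like genes 4 were above 0. Among 13 factors that act at MHC promoters RFX5 stood at 0.13 and NFYC at -0.11. Of the 32 tested interferon-stimulated genes 18 were above 0 with a median of 0.04, and IFI6 had the lowest p of them (0.54, SE 0.23, adjusted p = 0.847). In the second set alone 27 of the 32 were above 0 with a median of 0.23, where 50.8% of all genes were above 0. The median of the list over its mean of 10 libraries was 0.94 in OE and 0.56 in EV replicate 4, and -0.36 and -0.44 in OE and EV replicate 5. In the first set alone 10 were above 0 (47.7% of all genes), with a median of -0.06. There 9 had an unadjusted p under 0.05, as did 8.84% of all genes. The edgeR fits called 0 of the 32 in either set or in the difference between the sets. MHC class II genes were near absent, with 0 of 12 passing the filter on low counts, HLA-DOA, HLA-DPB1, HLA-DQA1 and HLA-DQB1 at 0 in every library, and CIITA, the class II transactivator, at 0.384 to 1.90 CPM.

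Between the sets, 1 class I gene was higher and 1 lower. TAP2 averaged 77.2 ± 7.81 CPM in the second set (n = 4) and 57.0 ± 1.31 CPM in the first set (n = 6, SD), with no overlap, and rose by 0.44 on the log2 scale (SE 0.07, adjusted p = 0.00125, edgeR with a term for the group). HLA-B averaged 190.0 ± 33.5 CPM in the second set and 262 ± 41.1 CPM in the first set, and fell by 0.46 (SE 0.12, adjusted p = 0.0215), although the sets overlapped. The call for HLA-B was lost without OE replicate 5 (-0.37, adjusted p = 0.0665) and without EV replicate 5 (-0.39, adjusted p = 0.0662). TAP1, the partner of TAP2 in the transporter, stood on the other side of 0 at -0.25 (SE 0.09, adjusted p = 0.0518), HLA-C at -0.24 (adjusted p = 0.164), HLA-E at 0.32 (adjusted p = 0.0647; 0.17 without OE replicate 4) and TAPBP at 0.19 (adjusted p = 0.0803). The 2 of 9 genes called compare with 18.4% of all genes (9.27% higher, 9.17% lower), and 1 of 9 without overlap and higher with 8.48%; both shares are near the background. The number called was 4 without EV replicate 2, where 26.6% of all genes were called, and 3 without OE replicate 4 (11.9%), OE replicate 5 (14.5%) or EV replicate 3 (17.4%). Among the related genes PSMB10, an immunoproteasome subunit, rose by 0.77, CANX, calnexin, fell by 0.26 and PDIA3 fell by 0.24 in the second set. The sets differ in table and replicate number, and what else differs cannot be told apart.

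Within the second set, HLA-E was lower in replicate 5 than in replicate 4 of both groups, and the other class I genes lay on the same side. All 9 had values below 0 for replicate 5 over replicate 4 in the fit over the 10 libraries with terms for group and number, with a median of -0.43 against -0.0017 for all genes. HLA-E had 243 CPM in OE replicate 5 and 227 CPM in EV replicate 5, against 379 CPM in OE replicate 4 and 309.8 CPM in EV replicate 4, and it fell by 0.55 (SE 0.10, adjusted p = 0.0274). This was 1 of 9 called, where 0.499% of all genes were called lower. HLA-F had 11.5 and 9.86 CPM in OE and EV replicate 5, against 19.4 and 17.2 CPM in OE and EV replicate 4 (-0.78, SE 0.17, adjusted p = 0.0648). B2M had 875 and 931 CPM in OE and EV replicate 5, against 1303 and 1239 CPM in OE and EV replicate 4 (-0.50, SE 0.12, adjusted p = 0.126).

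HLA-C stood at -0.44 (SE 0.15, adjusted p = 0.301) and HLA-B at -0.43 (SE 0.15, adjusted p = 0.309), and the loading genes TAP2, TAP1 and TAPBP at -0.23, -0.20 and -0.20. NLRC5 stood at -0.18 (SE 0.13, adjusted p = 0.700) and was the 1 gene for which both replicate 5 libraries did not lie below both replicate 4 libraries; the other 8 of 9 did, against 26.0% of all genes. The call for HLA-E was lost in 6 of the 10 fits that left out 1 library, those without OE replicate 3, 4 or 5 or EV replicate 3, 4 or 5 (adjusted p 0.0763 to 0.602, values -0.64 to -0.44), and without OE replicate 2 or EV replicate 2 there were 4 of 9 called lower, where 1.46% of all genes were called lower in each of these fits. With the second set fitted alone, where the spread comes from 4 libraries, 7 of 9 class I genes were called lower and 7.10% of all genes were.

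**Figure D4:**
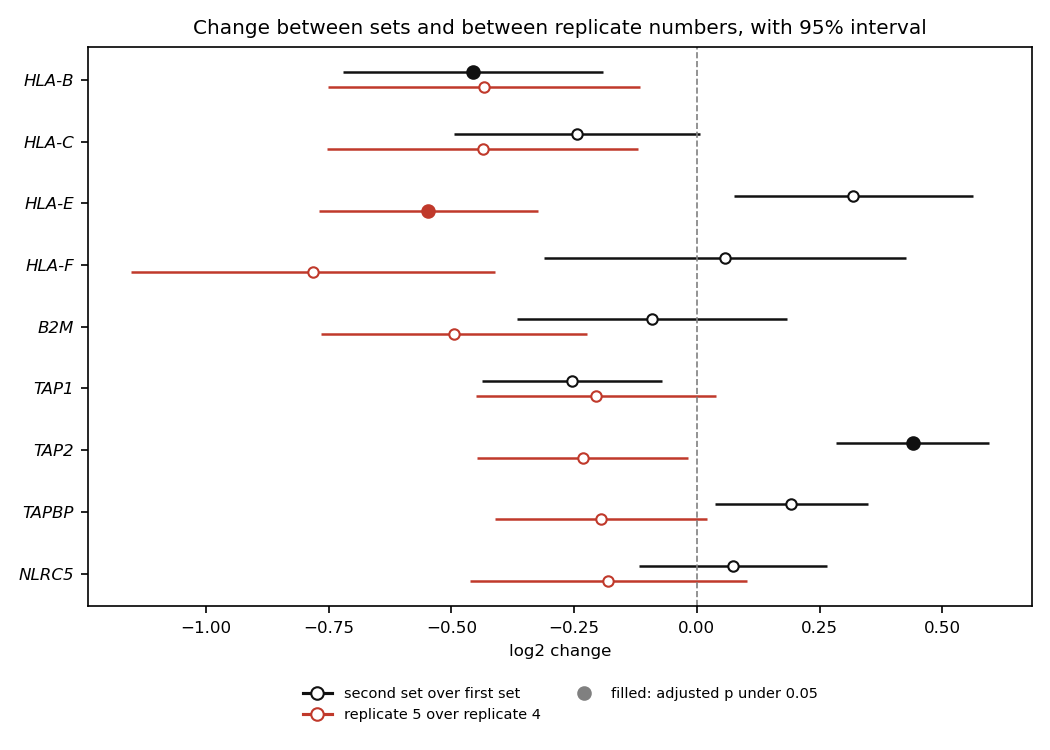
Log2 difference for each gene with its 95% interval, for replicate 5 over replicate 4 and for the second set over the first set; filled points mark an adjusted p under 0.05 and the dashed line is at 0. All 9 genes lie left of 0 for replicate 5 over replicate 4, with HLA-E filled at -0.55, and for the sets TAP2 is filled at 0.44 and HLA-B at -0.46.

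Genes that interferon induces were also lower in replicate 5 than in replicate 4. Of 32 tested interferon-stimulated genes 25 were called lower in replicate 5 than in replicate 4, with a median of -1.26, where 0.499% of all genes were called lower. How many of these calls hold with 1 library left out was not counted. IFIT3, which binds viral RNA together with its relatives, had 84.6 and 84.5 CPM in OE and EV replicate 5, against 257 and 218 CPM in OE and EV replicate 4 (-1.50, SE 0.15, adjusted p = 0.000671). Against the first set the departures were not alike. IFIT3 ran over 81.0 to 115 CPM there, so both replicate 4 libraries lay above that range and replicate 5 within it. HLA-E (213 to 249 CPM in the first set) had the same order. HLA-B ran over 209.8 to 305 CPM in the first set, with replicate 4 within that range and replicate 5 (168 and 156 CPM) below it. USP18, which damps the type I receptor, fell by 1.18 (adjusted p = 0.0115). PSMB9, an immunoproteasome subunit transcribed next to TAP1, fell by 1.08 (adjusted p = 0.0299), and all 5 immunoproteasome and PA28 genes were below 0, with a median of -0.44. The 15 constitutive proteasome genes had a median of -0.01, and 0 of them were called. Leukocyte markers summed to 2.15 and 1.72 CPM in OE and EV replicate 5, against 1.96 and 2.04 CPM in OE and EV replicate 4. Of 5 tested thyroid and epithelial markers 2 were above 0, among them PAX8 at 0.19, and 3 below; KRT8, an epithelial keratin, was the 1 called and fell by 0.74 (adjusted p = 0.01003). What differed between the 2 replicate numbers is not given, and the part of these genes in the class I values was not tested.

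Across the 10 libraries, after centring within each set, most class I genes varied in the same direction. Of the 36 gene pairs 35 had a correlation above 0, with a median of 0.67; the highest was 0.90 for HLA-B with HLA-F and the lowest -0.16 for B2M with NLRC5. Against the mean of the other 8, HLA-F had a correlation of 0.93, HLA-E 0.92 and HLA-C 0.90, and B2M 0.48 and NLRC5 0.54. The genes outside the list with the pattern most like their mean, of 12080 candidates, were IFI6 (0.99), LGALS3BP (0.98), PARP10 (0.98), CALR (0.97) and P3H4 (0.95). These correlations describe 10 libraries that share group, set and composition, and they carry no test. The share above 0 and the median were not computed over all gene pairs, so they cannot be called particular to these genes. IFI6 had 108.5 and 82.2 CPM in OE and EV replicate 5, against 270.1 and 189.6 CPM in OE and EV replicate 4. All class I genes except B2M and NLRC5 shared this order of the second set.

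**Figure D5:**
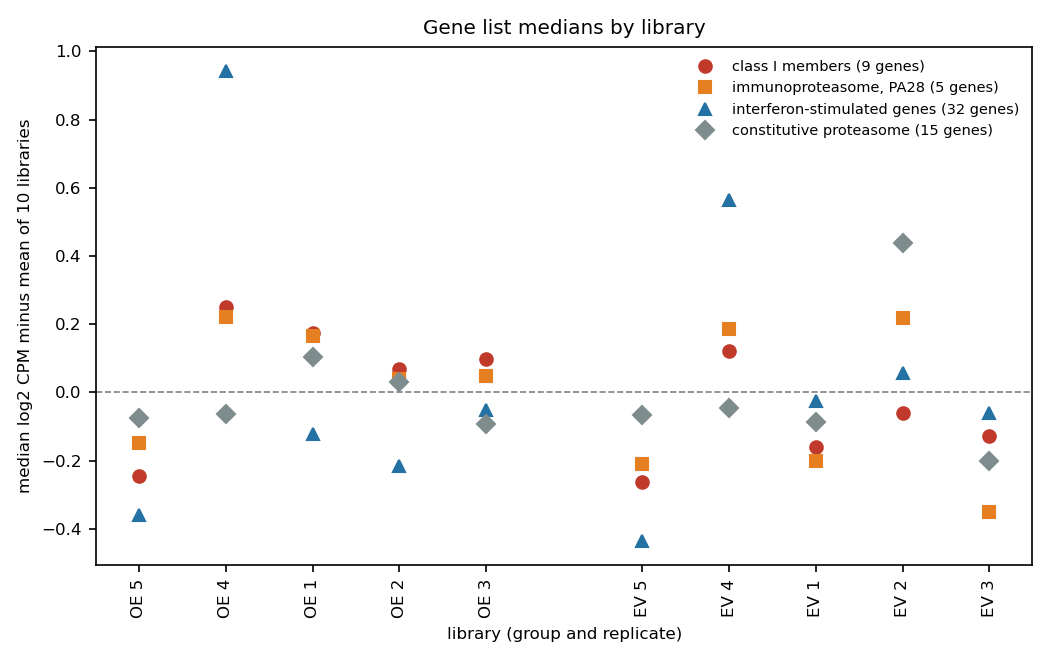
Median over a gene list of log2 CPM minus the gene's mean of 10 libraries, for each library (x axis, group and replicate number), with 1 marker per list. The class I genes lie at -0.25 in OE replicate 5 and -0.26 in EV replicate 5, and at 0.25 in OE replicate 4 and 0.12 in EV replicate 4; the interferon-stimulated genes lie at 0.94 and 0.56 in OE and EV replicate 4.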

How the data were processed

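RNA of TPC-1 cells was sequenced in paired ends from NEBNext Ultra libraries, per the labels' protocols. The authors deposited whole-number counts per gene and library, with gene lengths, on hg38; HISAT2 2.0.5 and fastp, featureCounts 1.5.0-p3, DESeq2 1.20.0 and CASAVA 1.8 are named, without roles, per the submitters' processing notes. Their deposited log2 fold changes and adjusted p-values compare single libraries of the second set. The gene length column, another quantity the authors deposited, served for TPM. The 14 further per-library columns of values were not used.

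The class I genes and gene lists were chosen with earlier results of these data known. The genes named are the 9 class I genes, up to 4 genes per list with the lowest p, and the 5 genes with the most similar pattern; CIITA and the marker genes were named after their values were seen. Counts were tested with edgeR 4.0.16 in R 4.3.3 (TMM scaling, filterByExpr by group, quasi-likelihood test, Benjamini-Hochberg adjusted p under 0.05), with set as a term where both sets entered. CPM use TMM sizes, with a prior count of 2 on the log2 scale. A count of 3 corresponded to 0.167 to 0.192 CPM. Same-group libraries differed by more than counting noise, so none was a duplicate. Alternatives were DESeq2 1.42.0, limma-voom 3.58.1, another scaling, no filter, a replicate block, leaving out each library, and a GC and length offset added later. The edgeR scripts were tested on simulated data. Promoter windows came from RefSeq.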

Additional observations from a re-analysis of the deposited data

Results flagged for a closer look

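HLA-E stood out within both groups, in the same replicate number. Its highest OE value, 379 CPM in replicate 4, was far from the other 4 OE libraries (229 to 249 CPM) for a group of 5. Its highest EV value, 309.8 CPM in replicate 4, was also flagged against the other 4 EV libraries (213 to 241 CPM). The gap to the next library was 0.866 of the range in OE and a narrower 0.712 in EV cells. These are 2 of 18 groups of 5 examined, and chance flags about 1 in 20 such groups if they are independent. They are not, since the genes vary together and each group spans both sets, so that rate is a rough guide only.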

How the results depend on the processing

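The lowest value of any class I gene in a library was 9.86 CPM, above the 0.167 to 0.192 CPM that 3 counts are worth. Of 333 class I values under other settings, 297 kept their direction and their side of the threshold, 27 newly passed it and 9 reversed; of 450 with 1 library left out, 387 kept both, 16 newly passed, 8 no longer passed and 39 reversed. The cause was not tested for any of these.

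Over both sets, DESeq2 called 6 genes, and no filter 23 genes with 1 class I gene. In the first set, where the main count was 5 genes, DESeq2 called 76, no filter 90, the replicate block 1, the GC and length offset 15, and that offset without EV replicate 2 called 965 with 4 class I genes; leaving out 1 library gave 0 to 1578 genes and 0 to 3 class I genes. In the second set, DESeq2 called 1, no filter 12, and the replicate block 71 genes with 1 class I gene, HLA-C (0.22, SE 0.06, adjusted p = 0.0499); leaving out 1 library gave 0 to 1. For the difference between sets, DESeq2 called 9, no filter 28, the replicate block 3 and the GC and length offset 3 genes, and leaving out 1 library gave 0 to 7, where the main count was 1. For the second over the first set, DESeq2, no filter and the GC and length offset each called 4 class I genes in place of 2, where 22.8%, 9.54% and 21.2% of all genes were called in that order, and leaving out 1 library gave 2 to 4, with 1312 genes (without EV replicate 4) to 3850 (without EV replicate 2) in all. For replicate 5 over replicate 4, class I calls were 3 with DESeq2, 5 with no filter, 7 with the second set alone and 5 with the GC and length offset in place of 1, and 0 (as without OE replicate 3) to 4 (without OE replicate 2) with 1 library left out; genes in all numbered 194, 289, 2074 and 272 in that order in place of 112, and 16 (without EV replicate 5) to 424 (without OE replicate 2).

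B2M for OE over EV reversed under the GC and length offset over both sets (0.017), in the first set (0.017, and 0.15 also without EV replicate 2) and in the second set (0.021), and with no filter in the second set (0.0030). Under the same offset the difference between sets reversed for TAP1 (0.038) and NLRC5 (0.089), and the second over the first set for B2M (0.030) and NLRC5 (-0.058). With 1 library left out, B2M ranged over -0.18 to 0.049 over both sets, -0.22 to 0.081 in the first set and -0.23 to 0.0070 for the second over the first set, where HLA-F ranged over -0.15 to 0.21. In the second set the ranges were -0.32 to 0.25 for B2M, -0.14 to 0.33 for HLA-B, -0.092 to 0.50 for HLA-C, -0.16 to 0.48 for HLA-E, -0.24 to 0.64 for HLA-F, -0.030 to 0.29 for TAP1, -0.040 to 0.23 for TAP2 and -0.062 to 0.22 for TAPBP. For the difference between sets they were -0.19 to 0.37 for B2M, -0.33 to 0.13 for HLA-B, -0.49 to 0.093 for HLA-C, -0.23 to 0.41 for HLA-E, -0.68 to 0.20 for HLA-F, -0.20 to 0.12 for TAP1, -0.066 to 0.20 for TAP2, -0.27 to 0.0088 for TAPBP and -0.13 to 0.053 for NLRC5. The design text speaks of pairs without saying what joins them. Deviations of same-numbered libraries within a set correlated at -0.11, 0.0035 and 0.16 for replicates 1 to 3. For replicates 4 and 5 it was 0.31, a single value by construction, since 2 libraries deviate in mirror image. With deviations taken over both sets, which also hold the set difference, it was 0.53 for replicate 4 and 0.41 for replicate 5. OE replicates 4 and 5 correlated best with the EV library of their number, and OE replicates 1 and 2 did not. These values do not settle whether numbers pair libraries in the second set, so the block was kept as an alternative. Where a lone library stood for a group, it was taken to vary like the others.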
